A study of Mus musculus with 8 samples.

Results

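Mitosis genes are described here in forelimb cells sorted from mouse embryos for expression from the Bapx1 locus. The set was given as 35 gene symbols of the G2/M phase and the spindle, and its members were all probes that the array's annotation assigns to those symbols. Of the 35 genes, 33 had a named probe, with 66 probes in all, and 27 could be tested among 11037 genes. Forelimbs were taken at E12.5 from embryos of strain C57BL/6J;129, cells with green fluorescence were collected by FACS, and total RNA was hybridized to Illumina mouse arrays, with 1 array for each of 4 wildtype and 4 null samples. The wildtype was Bapx1 +/tm2.Tlu, in which an internal ribosome entry site and EGFP follow the intact gene in its 3' UTR. The null was Bapx1 tm4.Tlu/tm4.Tlu, in which EGFP directly follows the start codon. EGFP thus came from the Bapx1 locus in both, but the reporter design and its copy number go with the genotype, and the sort and the genotype cannot be told apart. The number of embryos behind each sample was not given in the sources used here.

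Mitosis is the division of duplicated chromosomes between daughter cells, and most of its genes are transcribed late in the cell cycle and shut down in cells that leave it. Kinases bound to cyclins start the process, the kinetochore joins each centromere to spindle microtubules, a checkpoint delays separation until all chromosomes are attached, and the anaphase-promoting complex then marks cyclins and other proteins for destruction. Limb bud mesenchyme is a proliferating tissue in which cells condense and begin to form cartilage, and these transcripts are widely used as a sign of dividing cells.

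Many mitosis genes share promoter letters, and these are shown here because most of the members that could be searched held them. The cell cycle genes homology region, with the letters TTTGAA, is bound by complexes built on MuvB, and the letters CCAAT are bound by NF-Y. Promoter windows from 250 bases before to 50 after the start, from RefSeq on GRCm38.p6, were matched by symbol for 30 of the 35 members; Kif20a, Incenp, Tpx2, Aurkb and Ccna2 were not matched. A gene with several windows was counted if any of them held the letters. On either strand, TTTGAA stood in a window of 23 of the 30 members (76.7%). The share was 20.2% of 27025 genes and 14% of the 8935 genes tested on the arrays that had a window. In 21 members TTTGAA lay within 50 bases of the start, and the share of all genes with this was not counted. CCAAT also stood in a window of 23 of the 30 members (76.7%, against 41.1% and 43.2%). Both were found in 20 members (66.7%, against 8.97% and 7.04%), not necessarily in the same window, with overlapping letters in 1 window. The related letters TTCGAA stood in 3 of 30 (10%, against 1.8% and 2.7%). A match is a description of letters, not of a bound site. The following stretches of 30 bases, each 5′ to 3′ on the strand of its gene, are from 6 of the members given array by array below and from Plk1, the member with the largest difference. Of the other members given array by array, Mad2l1 had a window without TTTGAA and Aurkb was not matched. The Kif2c letters begin at -103 from the start, outside the 50 bases named above. Capitals mark TTTGAA or, where the match is on the opposite strand, TTCAAA.
Cenpa (chr5:30666890-30666919, plus strand): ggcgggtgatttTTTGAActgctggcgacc
Cdk1 (chr10:69352910-69352939, minus strand): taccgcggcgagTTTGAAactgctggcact
Plk1 (chr7:122159453-122159482, plus strand): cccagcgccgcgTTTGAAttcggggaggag
Prc1 (chr7:80294434-80294463, plus strand): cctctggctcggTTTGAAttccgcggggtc
Ube2c (chr2:164769888-164769917, plus strand): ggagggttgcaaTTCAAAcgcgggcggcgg
Kif2c (chr4:117178858-117178887, minus strand): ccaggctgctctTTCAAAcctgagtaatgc
Top2a (chr11:99024195-99024224, minus strand): gctagataaaggTTCAAAtgaaactaggga

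The arrays were of similar quality, with 19840 to 20879 probes detected on each (43.8% to 46.1%), and their number limits the precision. The targeted gene gave a check of the labels that could not be read simply: both Bapx1 probes were at background on all 4 arrays labelled wildtype (4.49 ± 0.03 and 4.47 ± 0.10, SD, n = 4) and detected on all 4 labelled null (7.87 ± 0.15 and 7.57 ± 0.16, SD, n = 4). The wildtype arrays thus gave background in cells sorted for expression from the locus with the intact gene, and the reason was not tested. The position of these probes was not analysed here. Wildtype and null mean the arrays so labelled throughout, and with exchanged labels every change would have the opposite sign. All levels are normalized log2 intensities, all changes are null minus wildtype on that scale, errors of a change are SE and those of a mean SD with n = 4. Adjusted p is from limma's moderated test with Benjamini-Hochberg adjustment over all 11037 genes, with a threshold of 0.05. In such bulk samples, fewer cells of a type and less RNA per cell cannot be told apart.

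The mitosis genes lay slightly lower in the null almost throughout, while few single genes passed the test. Cenpa, the histone H3 variant that marks centromeres, and Aurkb, the kinase that corrects faulty attachments of chromosomes to the spindle, fell, with changes of -0.35 ± 0.08 (adjusted p = 0.039) and -0.33 ± 0.08 (adjusted p = 0.0438). Of the 27 tested members 2 fell, 0 rose and 25 did not pass, while 6.18% of all genes passed, 3.4% lower and 2.78% higher; 2 calls are too few to set against that background. The change was below 0 in 26 of 27 members, against 46.8% of all genes, and 18 had an unadjusted p under 0.05 with a lower value in the null, against 10.3% of all genes, while 0 had one with a higher value, against 10%. By the methods' t-test, run here on the same quantile-normalized values, 14 members had an unadjusted p under 0.05, as did 2160 of all 11037 genes. After Benjamini-Hochberg adjustment 0 members passed, while 395 of all genes did. The median change was -0.24, a fold of 1.18 from null to wildtype, beside 0.01 over all genes. The changes ran from -0.47 to 0.21, and 0 members reached a fold of 1.5, which 356 genes past the threshold did. The genes share the same 8 arrays, so their common direction is not a count of independent observations.

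**Figure D1:**
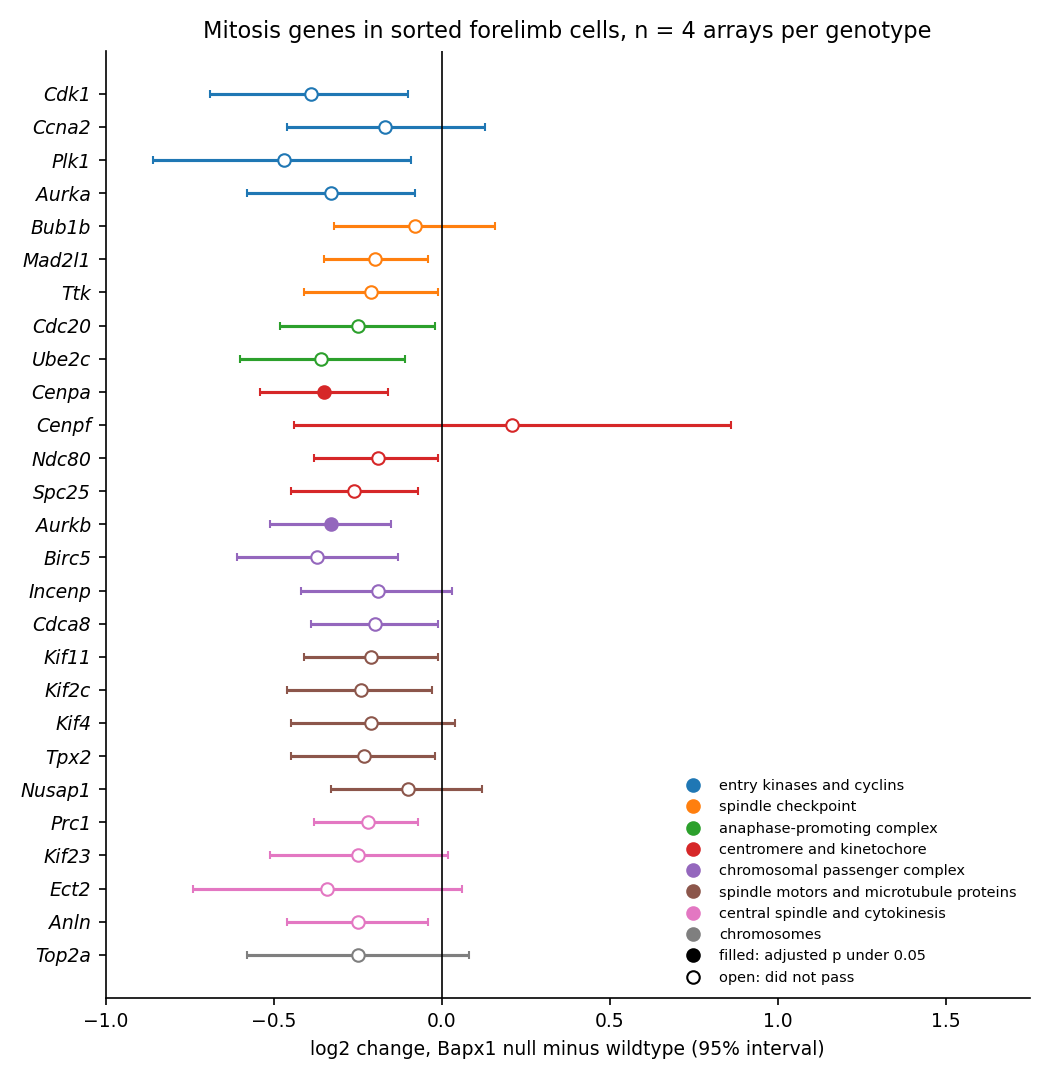
Log2 change (null minus wildtype, horizontal axis, 95% interval, n = 4 arrays per genotype) of the 27 tested mitosis genes (vertical axis), coloured by role; filled points passed an adjusted p of 0.05. All points but that of Cenpf lie below 0, and those of Cenpa and Aurkb are filled.

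The calls of Cenpa and Aurkb were lost in most alternatives, while the changes kept their sign. Each call was kept in 8 of 21 alternatives; with 1 array left out at a time, Cenpa kept its call in 2 of 8 and Aurkb in 1 of 8, with adjusted p between 0.00953 and 1 for Cenpa and between 0.017 and 1 for Aurkb over these 21. Over the same alternatives the changes lay between -0.41 and -0.29 for Cenpa and between -0.37 and -0.29 for Aurkb, and with 1 array left out between -0.38 and -0.31 and between -0.37 and -0.29. Of 3 further alternatives, added after the data were seen, both calls held with Xist as a term (-0.40 and -0.38), and both were lost with the variance prior over all probes (adjusted p = 0.0513 and 0.058) and without wildtype 1 and null 4 (-0.28 and -0.27).

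Among the genes that start mitosis, Cdk1, Plk1, Aurka and Ccna2 were tested, and 0 of the 4 passed, 3 with an unadjusted p under 0.05, with a median change of -0.36. Cdk1, the kinase that drives entry into mitosis, had levels of 9.97, 9.79, 9.53 and 9.47 in wildtype replicates 1 to 4 and of 9.06, 9.42, 9.47 and 9.24 in the null. Wildtype 1 was the highest and null 1 the lowest, and the groups did not overlap, although wildtype 4 and null 3 were equal to the digits printed. The change was -0.39 ± 0.13 (95% interval -0.69 to -0.10, adjusted p = 0.125). Groups that do not overlap, with the null lower, were found in 5 of the 27 members, Cdk1, Mad2l1, Cenpa, Aurkb and Prc1, and in 7.36% of all genes; the reverse was found in 0 members and 7.17% of all genes. Plk1, the kinase that acts on centrosomes, kinetochores and the cleavage plane, had the largest difference at -0.47 ± 0.17 (95% interval -0.86 to -0.09, adjusted p = 0.148), with overlapping groups: wildtype 3, at 9.29, lay below null 1, at 9.59, and null 4, at 9.33. Aurka, the centrosomal kinase, differed by -0.33 ± 0.11 (adjusted p = 0.12). Ccna2, the cyclin of S and G2 phases, differed by -0.17 ± 0.13 (95% interval -0.46 to 0.13, adjusted p = 0.54), with null 1, at 8.32, above every wildtype array. Ccnb2, a mitotic cyclin, was not detected on any array, and Ccnb1 was not analysed here because no probe was named for it.

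Of the spindle checkpoint, 3 members were tested and 0 passed, 2 with an unadjusted p under 0.05, with a median of -0.20. Mad2l1, a checkpoint protein that holds back anaphase, had levels of 9.58, 9.48, 9.40 and 9.40 in the wildtype and of 9.28, 9.27, 9.21 and 9.30 in the null. All null arrays lay below all wildtype arrays, within a narrow spread (9.46 ± 0.09 and 9.27 ± 0.04), and the change was -0.20 ± 0.07 (95% interval -0.35 to -0.04, adjusted p = 0.142). Its other probe differed by -0.23 with overlapping groups. Ttk, the kinase that sets the checkpoint going, differed by -0.21 ± 0.09 (adjusted p = 0.222). Bub1b, a checkpoint kinase homologue, was among the members closest to 0, at -0.08 ± 0.11 by the brighter probe (95% interval -0.32 to 0.16, adjusted p = 0.739) and -0.05 by the other. Bub1 was not detected on any array by either of its 2 probes.

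The anaphase-promoting complex was represented by its activator Cdc20 and its ubiquitin-conjugating enzyme Ube2c, and 0 of the 2 passed, although both had an unadjusted p under 0.05. Ube2c had levels of 8.78, 8.69, 8.89 and 8.47 in the wildtype and of 8.56, 8.18, 8.34 and 8.33 in the null. Wildtype 3 was the highest, and the groups overlapped only where wildtype 4 lay below null 1. The change was -0.36 ± 0.11 (95% interval -0.60 to -0.11, adjusted p = 0.0965). The 4 probes of Cdc20 differed by -0.25, -0.19, -0.20 and -0.28, and the adjusted p of the gene was 0.215. At the last of these probes the groups did not overlap, as at 6.39% of all probes with the null lower.

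At the centromere and kinetochore, 1 of 4 tested members passed, with a median of -0.23. Cenpa had levels of 12.75, 12.76, 12.54 and 12.54 in the wildtype and of 12.30, 12.38, 12.34 and 12.17 in the null. Wildtype 1 and 2 were the highest, null 4 the lowest, and the groups did not overlap (12.65 ± 0.12 and 12.30 ± 0.09). Its other probe, detected on 5 of 8 arrays, differed by -0.48. Spc25 and Ndc80 belong to the complex that grips microtubules. Spc25 differed by -0.26 ± 0.08 (95% interval -0.45 to -0.07, adjusted p = 0.106), and by -0.42 with groups that did not overlap at its other probe (adjusted p = 0.0643 over 20593 probes). Ndc80 differed by -0.19 ± 0.08 (adjusted p = 0.22). Cenpf, a large kinetochore and nuclear matrix protein, was the exception in sign, at 0.21 ± 0.29 (95% interval -0.44 to 0.86, adjusted p = 0.752), with the largest error of all members. Its levels ran from 6.13 to 7.13 in the wildtype and from 6.29 to 7.44 in the null, and its other probe differed by -0.09. Cenpe was not detected on any array, and Nuf2 on at most 3.

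The chromosomal passenger complex couples Aurkb to survivin (Birc5), Incenp and borealin (Cdca8), and 1 of its 4 members passed, with a median of -0.26. Aurkb had levels of 9.61, 9.59, 9.39 and 9.35 in the wildtype and of 9.15, 9.15, 9.24 and 9.09 in the null. As with Cenpa, wildtype 1 and 2 were the highest and null 4 the lowest, and the groups did not overlap (9.49 ± 0.13 and 9.16 ± 0.06). Birc5 differed by -0.37 ± 0.11 at its brightest probe (adjusted p = 0.0802), where only wildtype 3, at 9.69, lay within the range of the null, below null 2 at 9.71. Its other 2 probes were lower in the null without overlap, at -0.44 ± 0.10 and -0.51 ± 0.10, and passed the test over 20593 probes (adjusted p = 0.0448 and 0.0232), as did 3.97% of all probes and 2.12% in the lower direction. These were the 2 calls among the 47 kept probes of the members, of which 44 had a change below 0. Cdca8 differed by -0.20 ± 0.09 (adjusted p = 0.225) and by -0.41 at its other probe. Incenp differed by -0.19 ± 0.10 (95% interval -0.42 to 0.03, adjusted p = 0.316), with null 1, at 9.41, apart from the other null arrays, at 9.05 to 9.08.

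**Figure D2:**
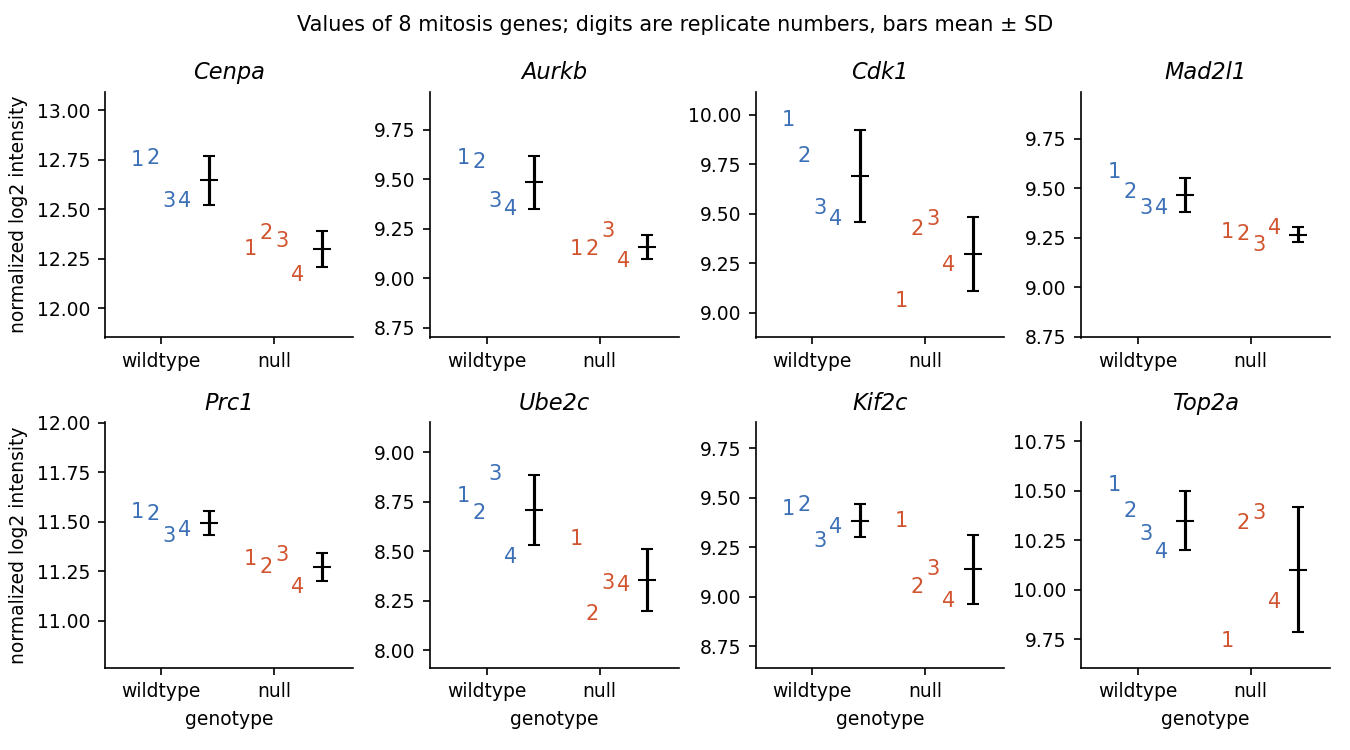
Normalized log2 intensity (vertical axes, all of the same span) on the wildtype and null arrays (horizontal axes) for 8 mitosis genes, with digits as replicate numbers and bars as mean ± SD. The groups do not overlap for Cenpa, Aurkb, Cdk1, Mad2l1 and Prc1, and they overlap for Ube2c, Kif2c and Top2a.

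Of the spindle motors and microtubule proteins, 5 were tested and 0 passed, 3 with an unadjusted p under 0.05, with a median of -0.21. Kif2c, a kinesin that takes apart microtubule ends at the centromere, had levels of 9.44, 9.46, 9.28 and 9.35 in the wildtype and of 9.38, 9.05, 9.14 and 8.98 in the null. Null 1 lay among the wildtype arrays, and the other null arrays lay below all of them. The change was -0.24 ± 0.10 (95% interval -0.46 to -0.03, adjusted p = 0.192). Kif11, the kinesin that pushes spindle poles apart, differed by -0.21 ± 0.09 (adjusted p = 0.213), and Tpx2, which activates Aurka on the spindle, by -0.23 ± 0.10 (adjusted p = 0.21). Kif4, a kinesin of chromosome arms, differed by -0.21 ± 0.11 at its brightest probe (adjusted p = 0.327) and by -0.05 and -0.24 at the others. Nusap1, which bundles microtubules near chromosomes, differed by -0.10 ± 0.10 at its brightest probe (95% interval -0.33 to 0.12, adjusted p = 0.631), by -0.15 at a second, and by -0.33 with groups that did not overlap at another.

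Of the genes of the central spindle and cytokinesis, 4 were tested and 0 passed, 2 with an unadjusted p under 0.05, with a median of -0.25. Prc1, which bundles the microtubules of the central spindle, had levels of 11.55, 11.54, 11.43 and 11.46 in the wildtype and of 11.31, 11.27, 11.33 and 11.17 in the null. The groups did not overlap, with a small spread in both (11.50 ± 0.06 and 11.27 ± 0.07), and the change was -0.22 ± 0.07 (95% interval -0.38 to -0.07, adjusted p = 0.0965). Anln, a scaffold of the contractile ring, differed by -0.25 ± 0.09 (adjusted p = 0.164), and by 0.10 at a second probe detected on 6 of 8 arrays. Ect2, the exchange factor that activates RhoA at the cleavage plane, differed by -0.34 ± 0.18 (adjusted p = 0.327). Kif23, a kinesin of the central spindle, differed by -0.25 ± 0.12 at its brightest probe (adjusted p = 0.293), by -0.37 and -0.29 at others, and by 0.19 at the dimmest. Kif20a and Racgap1 were not detected on any array. Another probe of Prc1 was also not detected on any array, although its brightest probe was well above background. A probe at background thus does not show that a transcript was absent.

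Top2a, the topoisomerase that untangles sister chromosomes, had levels of 10.53, 10.40, 10.28 and 10.19 in the wildtype and of 9.74, 10.34, 10.39 and 9.94 in the null. Null 1 and 4 were the lowest, while null 2 and 3 lay among the wildtype arrays. The change was -0.25 ± 0.15 (95% interval -0.58 to 0.08, adjusted p = 0.394), and at a second probe -0.34. Mki67, the proliferation marker, was not analysed here because no probe was named for it.

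The arrays of a genotype were not alike. With each gene centred on its mean over the 8 arrays, the median over the 27 genes was 0.25, 0.17, 0.03 and 0.03 in wildtype 1 to 4 and -0.15, -0.10, -0.06 and -0.21 in null 1 to 4. The medians of the genotypes did not overlap, but wildtype 3 and 4 lay closer to null 3 than to wildtype 1. Wildtype 1 was the highest array for 13 genes and wildtype 2 for 8, while null 4 was the lowest for 11 and null 1 for 8. Of all 11037 genes, wildtype 1 was the highest array for 1394 and wildtype 2 for 1676. Null 4 was the lowest for 1206 of them and null 1 for 2065. In null 4, 26 of the 27 mitosis genes lay below their own mean, and in wildtype 1, 0 did. Of all genes, 5635 lay below their own mean in null 4 and 6355 in wildtype 1. With wildtype 1 and null 4 left out together, a step chosen after the data were seen, the median change was -0.17, 25 of 27 changes were below 0 and 0 genes passed.

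**Figure D3:**
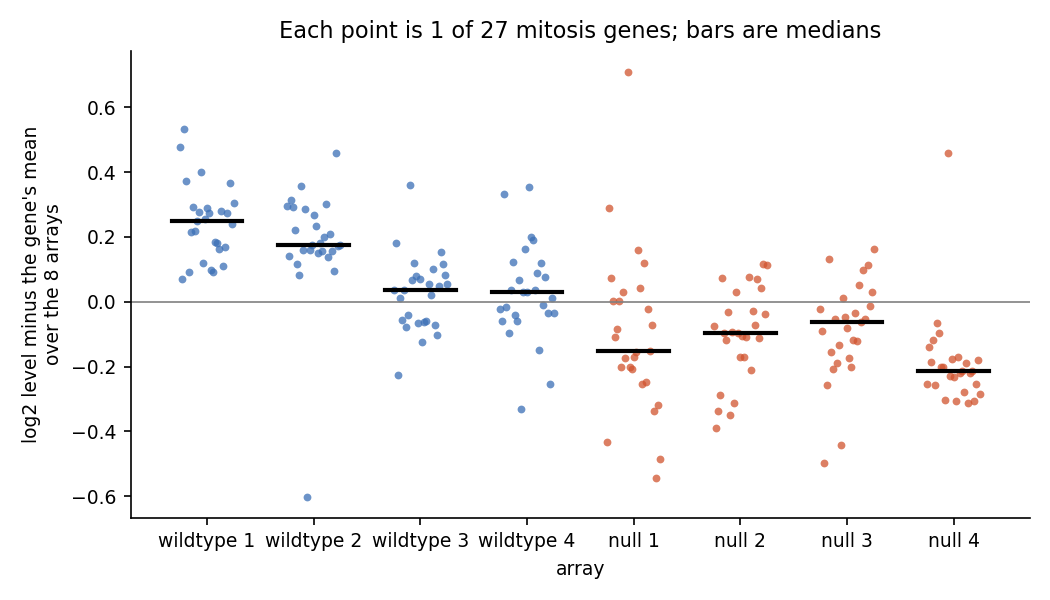
Log2 level minus the gene's mean over the 8 arrays (vertical axis) for each of 27 mitosis genes (points) on each array (horizontal axis), with bars as medians. The medians are 0.25 and 0.17 in wildtype 1 and 2, 0.03 in wildtype 3 and 4, and between -0.21 and -0.06 in the null.

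Null arrays 1 and 4 also stood apart from 2 and 3 in part of the genes. Both lay below both of the others in 13 of the 27 members (48.1%), Top2a, Cdk1 and Cenpa among them, and in 29.7% of all genes; both lay above in 6 members (22.2%), among them Plk1, Aurka and Ttk, and in 28.9% of all genes. The X inactivation transcript Xist had levels of 11.83, 10.57, 12.02 and 11.27 in the wildtype and of 11.26, 8.99, 6.57 and 11.58 in the null, so that it was lowest in null 2 and 3. With the Xist level as a term in the fit, also chosen after the data were seen, the median change of the members was -0.291, and Cenpa and Aurkb passed (adjusted p = 0.0359 and 0.0433). Without null 2 and 3 together the median was -0.293, Cenpa and Aurkb no longer passed (adjusted p = 0.0657 and 0.0924), and Top2a and Kif23 did (adjusted p = 0.0438 and 0.0477). Of the 3 Y-linked genes tested, Eif2s3y had levels of 10.33, 10.46, 10.03 and 10.13 in the wildtype and of 10.82, 11.35, 11.46 and 10.67 in the null, higher on every null array (0.83 ± 0.18, adjusted p = 0.0232). Kdm5d was also higher without overlap (0.98 ± 0.25, adjusted p = 0.0529), and Uty overlapped between the genotypes (0.25 ± 0.21, adjusted p = 0.58). Markers of embryo sex thus moved with the genotype only in part. Of these 4 genes 1 passed, Eif2s3y, and Xist overlapped between the genotypes (-1.82 ± 0.95, adjusted p = 0.325), as Uty did. The part of Y-linked levels in the change of the mitosis genes was not tested.

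Markers of other cell types differed between the genotypes as well. The mean level of 9 macrophage and leukocyte markers was 6.44 to 7.10 in the wildtype and 5.04 to 5.22 in the null, and 8 of the 9 fell, with Ptprc and C1qa below the filter. All 7 platelet and megakaryocyte markers fell, from 8.93 to 9.82 in the wildtype to 5.89 to 7.49 in the null, where null 2 and 3 were the lowest. Of the erythroid markers 0 of 8 passed, 2 with an unadjusted p under 0.05, with Alas2 below the filter. Their mean level was 7.39 to 9.06 in the wildtype and 6.80 to 8.37 in the null. Wildtype 1 was the highest array and null 4 the lowest, as for the mitosis genes. Wildtype 3 was the lowest of its genotype, and null 1 to 3 (8.31, 8.21 and 8.37) lay close to wildtype 2 and 4 (8.39 in both). Wildtype 1 was also the highest array for the macrophage and leukocyte and the platelet and megakaryocyte lists. Of the muscle markers 4 of 7 fell (7.30 to 7.58, and 6.83 to 7.05), with Myod1, Myf5 and Pax7 below the filter, and of the endothelial markers 3 of 9 fell (7.02 to 7.40, and 6.71 to 7.02), with Kdr below it. Of the epithelial markers 0 of 6 passed (6.05 to 6.68, and 6.35 to 6.56), with Epcam and Krt5 below the filter. An unadjusted p under 0.05 was found for 2 of them, both higher in the null. Of the neural and Schwann markers 1 of 3 rose (6.66 to 6.91, and 7.11 to 7.25), with Foxd3, Tubb3 and Elavl3 below the filter. The markers of limb mesenchyme and cartilage had mean levels of 9.16 to 9.29 in the wildtype and 9.35 to 9.50 in the null, with 1 of 9 raised and Hoxd11 below the filter. An unadjusted p under 0.05 was found for 4 of the 9, all higher in the null, beside 10% of all genes. Their median change was 0.20, with 8 changes above 0 and 1 below. The part of these cells in the lower level of mitosis genes was not tested.

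**Figure D4:**
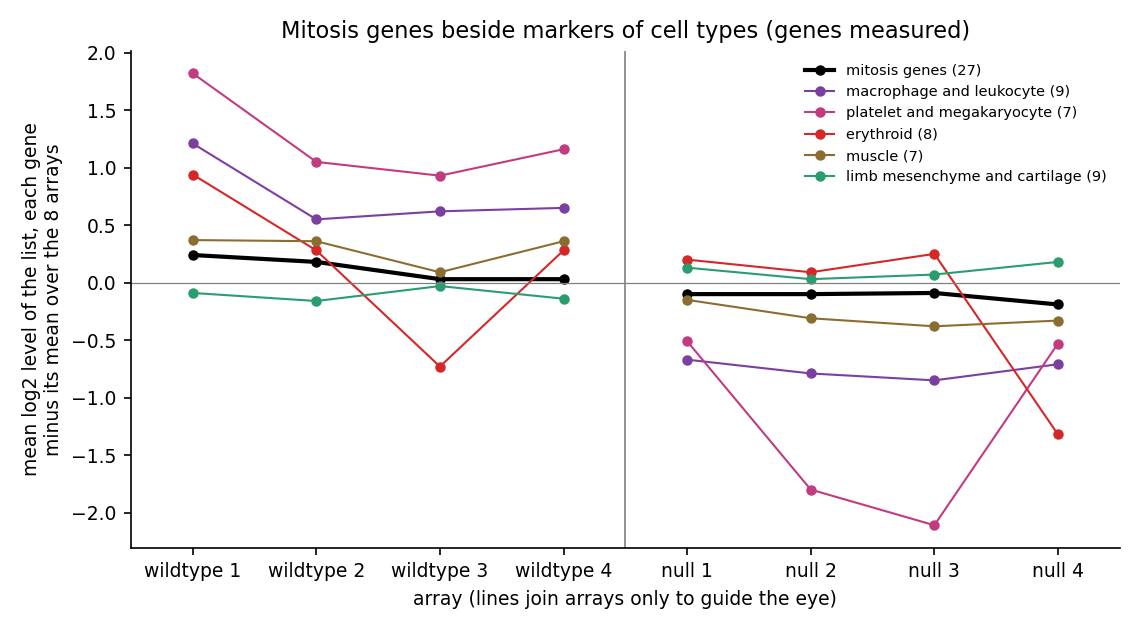
Mean log2 level of the mitosis genes and of 5 marker lists, each gene centred on its mean over the 8 arrays (vertical axis), on each array (horizontal axis; lines only guide the eye). The mitosis genes lie at 0.24 in wildtype 1 and -0.19 in null 4, a smaller range than that of the platelet, macrophage and erythroid markers.

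Other genes of the cell cycle outside the 35 were counted in 7 lists, with 132 genes tested; 7 fell and 1 rose, beside 3.4% of all genes lower and 2.78% higher, and 106 (80.3%) had a change below 0, beside 46.8% of all genes, with a median of -0.16. These calls are too few to set apart from that background. Of further mitotic regulators 2 of 17 fell, with a median of -0.20: Pbk, a mitotic kinase, at -0.41 ± 0.08 (adjusted p = 0.0139), and Cdc25c, the phosphatase that activates Cdk1, at -0.32 ± 0.08 (adjusted p = 0.0455). Pbk had levels of 10.08, 10.20, 9.90 and 10.11 in the wildtype and of 9.73, 9.66, 9.65 and 9.59 in the null, without overlap, and kept its call with each array left out. Of 25 further kinetochore and checkpoint genes 1 fell, Cenpw (-0.39 ± 0.09, adjusted p = 0.0254), a protein that builds on centromeric chromatin, and the median was -0.18. Of 23 further spindle and cytokinesis genes 1 fell, Cep55 (-0.42 ± 0.10, adjusted p = 0.0456), which acts in the final cut between daughter cells, and the median was -0.23. Of 17 condensin and cohesin genes 1 fell, Ncapg2 (-0.54 ± 0.12, adjusted p = 0.0264), a condensin II subunit, and the median was -0.21.

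The other 3 lists had medians closer to 0, and differences between lists were not tested. Of 16 further genes of the anaphase-promoting complex and of chromosome separation 9 lay below 0, with a median of -0.03, and its subunit gene Cdc23 rose by 0.30 ± 0.07 (adjusted p = 0.0416), from 9.64 to 9.84 in the wildtype to 9.94 to 10.10 in the null. Of 21 genes of DNA replication 1 fell, Tyms (-0.38 ± 0.08, adjusted p = 0.0194), which makes thymidylate, and 18 lay below 0, with a median of -0.14. Of 13 genes of cell cycle exit 6 lay below 0 and 7 above, and the median was 0.00. An unadjusted p under 0.05 was found for 2 genes lower in the null and 2 higher, beside 10.3% and 10% of all genes. Only Ccng2, an unconventional cyclin linked to arrest, passed, and it fell (-0.92 ± 0.12, adjusted p = 0.00241). Several of these calls were lost with most arrays left out in turn, while the changes kept their sign: with 1 array left out, Cdc25c and Cdc23 each kept theirs in 2 of 8 fits, Cenpw and Ncapg2 in 3, Tyms in 4 and Cep55 in 0, with changes of -0.35 to -0.27 for Cdc25c, 0.27 to 0.34 for Cdc23, -0.45 to -0.35 for Cenpw, -0.63 to -0.47 for Ncapg2, -0.41 to -0.34 for Tyms and -0.46 to -0.34 for Cep55. Ccng2 kept its call in 8 of 8.

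The share of genes with TTTGAA in a promoter window differed between the lists. Among genes with a window, it was 72.7% of 22 further spindle and cytokinesis genes and 58.3% of 12 condensin and cohesin genes. It was 39.3% of 28 kinetochore and checkpoint genes and 20.0% of the further mitotic regulators. The share was 21.1% in the anaphase-promoting complex list, 14.3% in the genes of cell cycle exit and 10% in those of DNA replication. Among the tested mitosis genes, the 20 with TTTGAA in the window, such as the stretches of Cdk1 and Plk1 printed above, had a median change of -0.25 (from -0.47 to 0.21), and the 3 without it, Mad2l1, Birc5 and Nusap1, a median of -0.20 (from -0.37 to -0.10). With 3 genes in 1 class no difference can be read from these.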

How the data were processed

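Sorted forelimb cells of both genotypes were profiled on Illumina MouseWG-6 v2 arrays, with 4 samples each that the methods call biological replicates; p-values measure the spread between these samples. The authors deposited probe intensity on a linear scale, prepared in GenomeStudio, whose version is not given in the sources used here; it holds 0 values below 0, so it was taken as not background-subtracted, although the methods name subtraction. The deposited detection value is a fraction that rises with brightness, so 1 minus this value was used as detection p. A second deposited table holds log2 values, aligned between arrays by the authors, higher for brighter probes and with column medians from -0.015 (wildtype 4) to 0.014 (null 3); the baseline taken off each probe is unknown here, and the table served as an alternative. The tables were paired by their differences between arrays (45281 probes, largest distance 2.7e-06). The annotation names 1 gene for 34885 probes, several for 18, which were left unnamed, and none here for 10378.

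The nec function (normexp, offset 16) of limma 3.58.1, run in R 4.3.3, corrected the background of the intensity, which was then quantile normalized and put on the log2 scale. A probe was kept if 4 or more of the 8 arrays gave a detection p under 0.05 (20593 probes). The probe with the highest mean stood for its gene. lmFit and eBayes were run on 1 probe a gene (11037), two-sided, with Benjamini-Hochberg adjustment; probe results are from a fit of all kept probes. The refit on 1 probe a gene follows an earlier treatment of these data and was chosen after the variance prior over all probes had also been seen; the latter is given as an alternative. The chain was tested on simulated arrays. Members, roles, lists and markers were chosen with earlier results of these data known. Levels on every array are given for members past the threshold or with groups that do not overlap and, in a role with neither, for the member with the smallest p; of related lists, up to 3 genes past the threshold are named. Alternatives covered scaling, background, the authors' table, the variance model, the filter, probe averaging, weights for arrays, a t-test (for 2 groups the variance test that the methods name, run on the quantile-normalized values), a replicate block and leaving out arrays. Promoter windows were read from RefSeq (GRCm38.p6). No block for chips could be fitted, since labels and headers name none.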

Additional observations from a re-analysis of the deposited data

Results flagged for a closer look

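In 54 groups of 4 arrays (27 mitosis genes in each genotype), 1 array lay far from the others by the gap between neighbours. Incenp in null replicate 1 was at 9.41, with the nearest other null array at 9.08, a gap that took 0.89 of the range of the group against a critical value of 0.829. Chance gives such an array in about 1 in 20 groups.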

How the results depend on the processing

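Precision was limited by 4 arrays a genotype, and the 6 members at background have no value. The median change of the mitosis genes (-0.244) kept its sign and moved by less than the spread between arrays in every alternative tried, from -0.293 to -0.17, and from -0.275 to -0.193 with 1 array left out. The count of 2 mitosis genes past the threshold was 0 with scaling by the median absolute deviation, scaling by a median shift and the authors' table. It was also 0 with the methods' t-test, where 14 members and 2160 of all genes had an unadjusted p under 0.05. The variance prior over all probes, and leaving out wildtype 1 and null 4 together, gave 0 as well. The count was 4 with a robust variance trend, 7 with array weights, and 0 to 4 with 1 array left out. The 8 related genes became 0 with the median absolute deviation, 1 with the median shift, 1 with the authors' table, 3 with the t-test, 13 with saddle-point normexp, 26 with array weights, 13 without null 2 and 3, 5 with the variance prior over all probes, 16 with the Xist term, 2 without wildtype 1 and null 4, and 2 to 9 with 1 array left out. The 682 genes in all became 96 with the median absolute deviation (75 lower and 21 higher, against 375 and 307), 376 with the median shift, 321 with the authors' table, 395 with the t-test, 1478 with array weights and 408 without wildtype 1 and null 4.

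Replicate numbers did not pair the samples (correlations of deviations 0.06, 0.24, -0.18 and -0.26). With a replicate block Cenpa and Aurkb lost their calls (adjusted p = 0.0743 and 0.109), 1 other mitosis gene, Plk1, passed (0.0391), and the counts were 2 related genes and 453 genes. Over all alternatives, 599 of 648 single-gene values of the members kept their sign and side of the threshold, 30 lost a call, 15 gained one and 4 turned. Most of these values belong to the 25 members without a call in the main fit, which had none to lose. The 30 lost calls were all those of Cenpa and Aurkb. Of the values that turned, Bub1b was 0.015 with array weights and 0.0074 without wildtype 1 and null 4. Cenpf was -0.14 and Nusap1 0.0036 with array weights. The causes were not tested. The Xist term, the variance prior and the joint omission of wildtype 1 and null 4 were added after the data were seen.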
